A study of Homo sapiens with 12 samples.

Results

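Glucose enters most cells through facilitative transporters and is turned into pyruvate and lactate by the enzymes of glycolysis. The glucose transporter SLC2A1 (also called GLUT1) and 9 glycolytic enzymes were followed here in polysome-associated RNA of triple-negative breast cancer (TNBC) cells. The enzymes were HK2, PFKP, ALDOA, TPI1, GAPDH, PGK1, ENO1, PKM and LDHA. The 10 genes were chosen by name, with no gene for the steps of GPI and PGAM1, out of 24559 gene symbols in the count table, and all 10 passed the filter on low counts that left 16538 genes for testing.

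Polysome-associated RNA, that is mRNA bound by several ribosomes and recovered from sucrose gradients, was sequenced in 12 libraries from 3 established human TNBC cell lines. MDA-MB-231 and SUM159 cells carried an shRNA against TRMT112 (KD) or a control (EV), and BT549 cells carried a TRMT112 expression construct (OE) or an empty vector (EV), with 2 libraries in each of the 6 groups. TRMT112 is a small partner protein that several RNA and protein methyltransferases need for their stability and activity. The comparisons ask how lowering or raising it changes the set of mRNAs on polysomes. The KD control is labelled EV, while the methods describe a non-silencing shRNA in the same vector. All groups were stably selected, KD lines and their controls with puromycin and BT549 lines with G418, and the sources used here do not say whether a line was 1 clone. The cell lines were grown in different media, and only the SUM159 medium held insulin and hydrocortisone, so line and medium cannot be told apart.

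The libraries held between 22954226 and 27434677 expected counts. An expected count need not be whole, since a read that could come from more than 1 transcript is shared out among them. The median absolute log2 difference between the libraries of a group was 0.06 to 0.08 over all genes and 0.02 to 0.05 over the 10 members. Nothing in the labels says that the libraries of a group came from separate cultures, so p-values measure only the spread between these libraries, which may be technical. TRMT112 itself, at chr11:64316460-64317559 of GRCh38, was measured at 173 and 165 CPM (counts per 1000000 counts of the library) in MDA-MB-231 EV and at 73.8 and 70.4 CPM in KD. The SUM159 libraries gave 265 and 275 CPM for EV, against 163 and 155 CPM for KD. The BT549 libraries gave 129 and 129 CPM for EV, against 179 and 181 CPM for OE. The labelled direction was therefore seen in all 3 lines, with log2 fold changes of -1.23, -0.76 and 0.48. Of the markers of the labelled cell type, the mesenchymal VIM stood between 704 and 1986 CPM, the hormone receptor PGR was at or near 0, and ERBB2 was measured between 57.9 and 143 CPM. The receptor ESR1 was not among the gene symbols. Of the epithelial markers, KRT8 and KRT18 stood between 183 and 412 CPM in MDA-MB-231 and SUM159 and between 0.19 and 0.74 CPM in BT549. The epithelial EPCAM, KRT19 and CDH1 were at 3.02 CPM or less in every library.

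CPM values here are scaled by TMM, which sets a typical gene equal between libraries, so a change shared by all mRNAs would not appear. The count of an mRNA on polysomes depends on how much of that mRNA a cell holds and on how many of its copies carry ribosomes, and these cannot be told apart because no libraries of total RNA were analysed here. A change in every cell and a larger change in some of the cells cannot be told apart either. A gene is called when its adjusted p is under 0.05 in edgeR's quasi-likelihood test (Benjamini-Hochberg over all 16538 genes), and all adjusted p-values below come from that test.

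As background, SLC2A1 brings glucose into the cell, and hexokinase 2 (HK2) traps it by phosphorylation. Phosphofructokinase (PFKP is the platelet-type subunit) commits the sugar to glycolysis, and aldolase A (ALDOA) and triosephosphate isomerase (TPI1) split it and interconvert the 3-carbon products. GAPDH, PGK1, ENO1 and pyruvate kinase M (PKM) carry the product on to pyruvate and yield ATP and NADH on the way, and lactate dehydrogenase A (LDHA) reduces pyruvate to lactate and restores NAD+. Many tumor cells run this pathway at a high rate in the presence of oxygen, the Warburg effect, and HIF1 and MYC are known activators of several of these genes. GAPDH and PGK1 also serve as reference genes in many expression assays.

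On GRCh38 the annotation places HK2 at chr2:74834127-74893359, PFKP at chr10:3066333-3137718, ALDOA at chr16:30064164-30070457, TPI1 at chr12:6867119-6870948, GAPDH at chr12:6534512-6538374, PGK1 at chrX:77910739-78129295 and LDHA at chr11:18394560-18408425, all on the plus strand. On the minus strand it places SLC2A1 at chr1:42925353-42958893, ENO1 at chr1:8861000-8879190 and PKM at chr15:72199029-72231819.

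Levels per transcript length are given as TPM (counts divided by GENCODE 44 transcript length and scaled to the same total in each library). By this measure SLC2A1, HK2, PFKP and PGK1 stood below the other 6 genes. In MDA-MB-231 EV, GAPDH stood at 5230 ± 109 TPM (SD, n = 2) and ENO1 at 3110 ± 7.45 TPM (SD, n = 2). TPI1 followed at 1959 TPM, ALDOA at 1508 TPM, LDHA at 1119 TPM and PKM at 1010 TPM. PFKP at 340 TPM and PGK1 at 333 TPM were several times lower, SLC2A1 stood at 123 TPM, and HK2 was lowest at 19.9 TPM. GAPDH ranked between 4 and 35 among all gene symbols in the 6 groups, and HK2 between 4989 and 9910. The 6 upper and the 4 lower genes of this order did not mix in any group, although single places changed. In SUM159 KD, ENO1 at 1710 TPM fell behind TPI1 at 2622 TPM and ALDOA at 1806 TPM, and in BT549 OE, GAPDH at 2554 ± 13.4 TPM (SD, n = 2) and ENO1 at 2560 ± 8.69 TPM (SD, n = 2) could not be ordered.

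Per length, the 10 genes made up 1.48% ± 0.012 (SD, n = 2) of all TPM for MDA-MB-231 EV, against 1.76% ± 0.0020 (SD, n = 2) for KD. SUM159 went the other way, with 1.41% ± 0.0013 (SD, n = 2) for EV against 1.11% ± 0.014 (SD, n = 2) for KD. The BT549 shares of 1.03% ± 0.012 (SD, n = 2) for EV and 1.02% ± 0.0083 (SD, n = 2) for OE differed by less than the libraries of a group. Most of the higher share of MDA-MB-231 KD was GAPDH, which went from 0.523% ± 0.011 (SD, n = 2) to 0.743% ± 0.0047 (SD, n = 2). Without it the other 9 genes held 0.952% ± 0.00069 (SD, n = 2) for EV against 1.02% ± 0.0067 (SD, n = 2) for KD. The same 9 genes held 1.02% ± 0.0027 (SD, n = 2) of the SUM159 EV total and 0.784% ± 0.0075 (SD, n = 2) of that of KD, with GAPDH at 0.392% and 0.325%. No test was run on these shares.

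**Figure D1:**
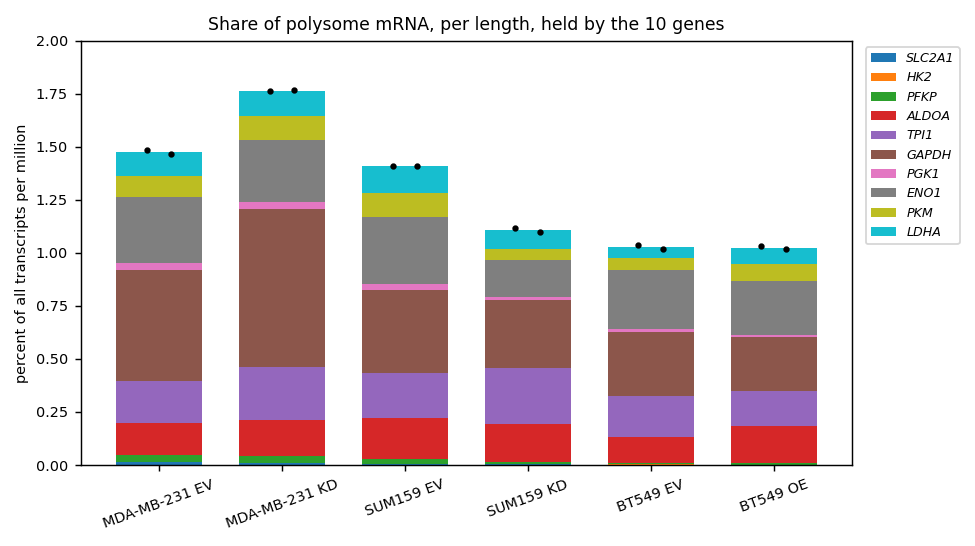
Stacked bars give each gene's mean TPM in a group as a percent of all TPM (y axis, from 0), and the dots give the total of the 10 genes in each of the 2 libraries. The total is highest in MDA-MB-231 KD at 1.76%, lower in SUM159 KD at 1.11% than in SUM159 EV at 1.41%, and nearly level between the BT549 groups.

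In MDA-MB-231 KD, the test called 5 of the 10 genes higher (21.2% of all genes were) and 2 lower (16.5% of all genes were), with 37.7% of all genes called in either direction. GAPDH, TPI1, PKM, ALDOA and LDHA rose, and SLC2A1 and HK2 fell. PFKP, PGK1 and ENO1 did not pass the test. The median log2 fold change of the 10 genes was 0.09, beside 0.00 over all genes.

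GAPDH, which oxidizes glyceraldehyde-3-phosphate and produces NADH, moved most in this line. It was measured at 3315 and 3215 CPM in EV and at 4984 and 4889 CPM in KD. The KD libraries lay well above both EV libraries, a log2 fold change of 0.60 (SE 0.024, adjusted p = 6.66e-15). TPI1 was at 1295 and 1286 CPM in EV and at 1756 and 1758 CPM in KD. These groups did not overlap either, and TPI1 rose by 0.45 on the log2 scale (SE 0.027, adjusted p = 1.12e-11). PKM went from 1098 and 1088 CPM to 1332 and 1306 CPM, and ALDOA from 1089 and 1080 CPM to 1294 and 1287 CPM, log2 fold changes of 0.27 and 0.25. LDHA rose least of the 5, from 1019 and 1036 CPM to 1128 and 1139 CPM (log2 fold change 0.14, adjusted p = 6.86e-05), and its call was lost with library size alone (0.05, adjusted p = 0.0851) and for the main transcript tested singly (0.07, adjusted p = 0.459).

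At the entry of the pathway, SLC2A1 was at 147 and 152 CPM in EV and at 122 and 123 CPM in KD, a log2 fold change of -0.29 (SE 0.046, adjusted p = 2.3e-05). This call was lost when the main transcript was tested singly (-0.36, adjusted p = 0.457). HK2 was at 52.9 and 55.2 CPM in EV and at 47.7 and 45.5 CPM in KD. Its KD libraries lay below both EV libraries by a small margin, and the call (log2 fold change -0.21, adjusted p = 0.00294) was lost without EV replicate 2 (-0.18, adjusted p = 0.0507), without KD replicate 2 (-0.18, adjusted p = 0.0552) and for the main transcript tested singly (-0.18, adjusted p = 0.281). PGK1 differed little between 478 and 479 CPM in EV and 480 and 481 CPM in KD. ENO1 stood at 2659 and 2650 CPM in EV and 2649 and 2685 CPM in KD, with overlapping groups. When libraries were scaled by their size alone, PGK1 and ENO1 were both called lower, by -0.08, so no direction is given for them.

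In SUM159 KD, the enzymes from phosphofructokinase to lactate dehydrogenase were mostly lower. The test called 8 of the 10 genes lower (31.4% of all genes were) and TPI1 higher (28.6% of all genes were), ALDOA did not pass, and 60.1% of all genes were called in either direction. The members' median log2 fold change was -0.57, beside 0.00 over all genes, and 47.1% of all genes changed by over 0.5 in either direction in this comparison.

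PFKP fell most. It was at 298 and 298 CPM in EV and at 131 and 126 CPM in KD, with no overlap between the groups (log2 fold change -1.22, SE 0.032, adjusted p = 2.5e-19). PKM was at 1360 and 1417 CPM in EV and at 757 and 722 CPM in KD (log2 fold change -0.91, SE 0.027, adjusted p = 2.2e-18). PGK1, which makes the first ATP of the pathway, was at 427 and 420 CPM in EV and at 244 and 237 CPM in KD. All KD values lay far below the EV values, and PGK1 fell by 0.82 on the log2 scale (SE 0.030, adjusted p = 7.54e-17). ENO1, the next enzyme but one, went from 3063 and 3092 CPM to 1842 and 1812 CPM, a log2 fold change of -0.75 (SE 0.022, adjusted p = 1.61e-18).

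HK2 was at 35.9 and 36.4 CPM in EV and at 21.9 and 22.6 CPM in KD, a log2 fold change of -0.70 (SE 0.063, adjusted p = 1.23e-09). LDHA went from 1335 and 1316 CPM to 965 and 988 CPM, and fell by 0.44 on the log2 scale (SE 0.025, adjusted p = 2.19e-13). GAPDH changed little, from 2809 and 2803 CPM to 2578 and 2474 CPM (log2 fold change -0.15, adjusted p = 6.46e-06). SLC2A1, at 65.9 and 69.1 CPM in EV and 60.6 and 58.9 CPM in KD, had a log2 fold change of -0.18 (adjusted p = 0.00617), and this call was lost without EV replicate 2 (adjusted p = 0.0730), without KD replicate 2 (adjusted p = 0.0556), in DESeq2 (adjusted p = 0.0682) and for the main transcript tested singly (adjusted p = 0.185). TPI1 went the other way from the rest, from 1588 and 1634 CPM to 2202 and 2102 CPM, a log2 fold change of 0.42 (SE 0.027, adjusted p = 3.18e-12). ALDOA stood at 1592 and 1618 CPM in EV and at 1640 and 1608 CPM in KD, with overlapping groups (log2 fold change 0.02, adjusted p = 0.644).

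**Figure D2:**
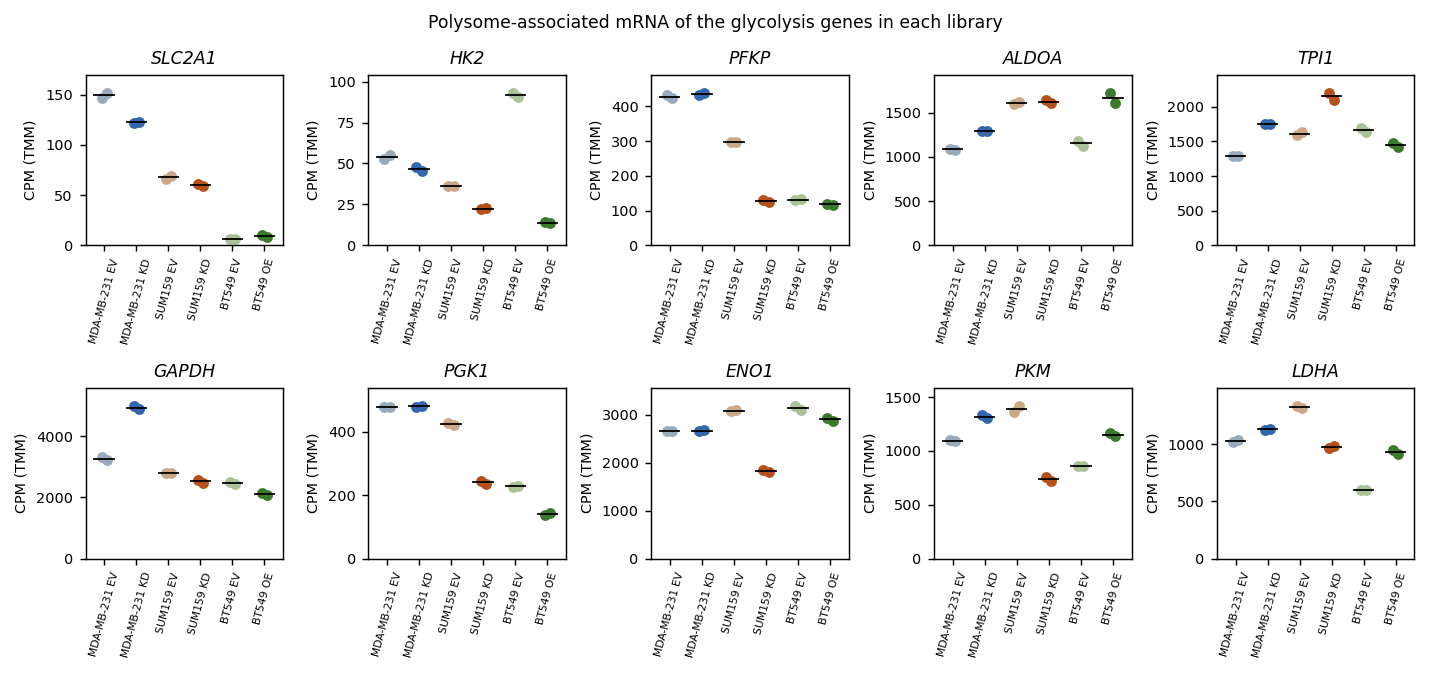
Each panel shows 1 gene, with CPM after TMM scaling on a y axis that starts at 0, a dot for each of the 2 libraries of a group and a bar at their mean. Libraries of a group lie close together, and the SUM159 KD libraries are far below the SUM159 EV libraries for PFKP, PGK1, ENO1 and PKM but above them for TPI1.

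Both KD comparisons use their own EV libraries, so their difference can be tested in the same model. The KD effect in MDA-MB-231 minus that in SUM159 was called positive for 8 of the 10 genes (27.7% of all genes were, with 23.2% negative and 50.9% in either direction), namely PFKP, PKM, PGK1, ENO1, GAPDH, LDHA, HK2 and ALDOA. The largest differences on the log2 scale were 1.25 for PFKP (SE 0.043, adjusted p = 1.15e-16) and 1.18 for PKM (SE 0.038, adjusted p = 3.55e-17). PKM and LDHA rose in MDA-MB-231 KD and fell in SUM159 KD, and so did GAPDH. TPI1, higher in both, had nearly the same log2 fold change in the lines, with a difference of 0.03 (SE 0.038, adjusted p = 0.61). The difference for SLC2A1 was -0.11 (SE 0.070, adjusted p = 0.198). TRMT112 itself fell further in MDA-MB-231 than in SUM159 (difference -0.47, adjusted p = 1.83e-07). The part of knockdown depth, line and medium in these differences was not tested.

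In BT549 OE, HK2 was far lower, and ALDOA, PKM and LDHA were higher. All 10 genes passed the test, 4 higher (35.6% of all genes were) and 6 lower (35% of all genes were). In this comparison 70.6% of all genes were called, so the count itself is not a result about these genes. The members' median log2 fold change was -0.14, beside 0.02 over all genes, and the median absolute change over all genes was 0.70, a size that only HK2 and PGK1 exceeded.

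HK2 showed the largest change of any member in any comparison within a line. It was at 93.2 and 90.5 CPM in EV and at 14.3 and 13.4 CPM in OE. The EV libraries were the highest of the 12 for HK2 and the OE libraries the lowest, a log2 fold change of -2.73 (SE 0.064, adjusted p = 7.43e-21). PGK1 fell from 227 and 230 CPM to 137 and 143 CPM (log2 fold change -0.71, SE 0.033, adjusted p = 2.48e-15). GAPDH, TPI1, PFKP and ENO1 had small lower values, with log2 fold changes of -0.23, -0.20, -0.16 and -0.11, each called.

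LDHA was at 597 and 603 CPM in EV and at 947 and 918 CPM in OE, and rose by 0.64 on the log2 scale (SE 0.025, adjusted p = 1.68e-16). ALDOA went from 1181 and 1126 CPM to 1723 and 1606 CPM (log2 fold change 0.53, SE 0.029, adjusted p = 8.49e-14). PKM went from 857 and 861 CPM to 1166 and 1141 CPM (log2 fold change 0.43, SE 0.027, adjusted p = 1.33e-12). In each of these 3 the OE libraries lay above both EV libraries. SLC2A1 was low throughout, at 6.09 and 5.97 CPM in EV and 10.5 and 8.29 CPM in OE, with the widest gap between replicates of any member (0.33 on the log2 scale). Its log2 fold change of 0.64 (SE 0.12, adjusted p = 4.53e-05) did not hold for its main transcript tested singly, which gave -0.23 (adjusted p = 0.682).

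**Figure D3:**
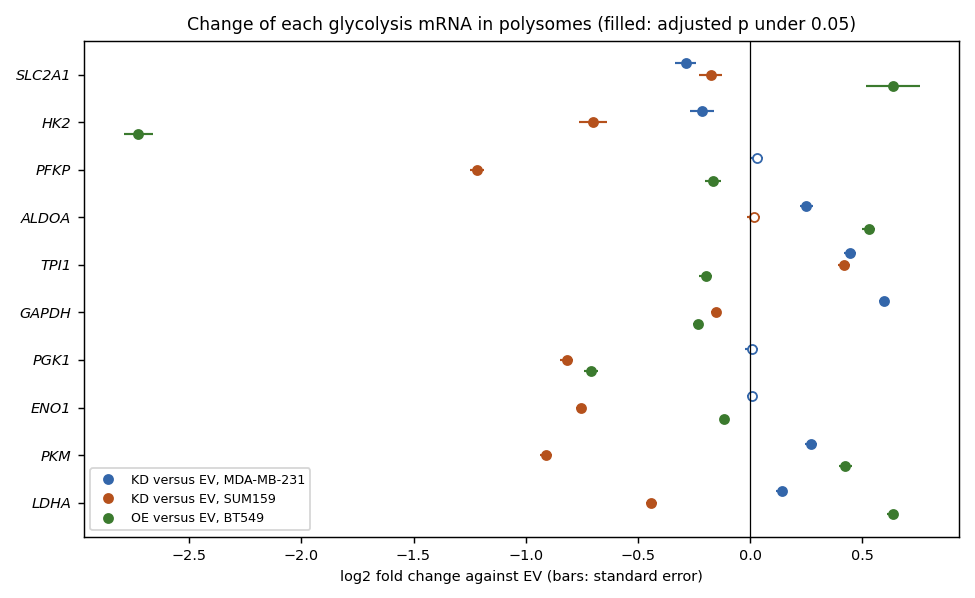
Points give the log2 fold change of each gene against the EV libraries of its line (x axis), bars give 1 standard error, and open points did not pass an adjusted p of 0.05 in edgeR's quasi-likelihood test. HK2 in BT549 OE stands apart at -2.73, and the SUM159 points lie left of the MDA-MB-231 points for 8 genes, with TPI1 at nearly the same place in both lines.

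Across the 6 groups the genes differed widely in how much they varied. SLC2A1 mRNA spanned 24.7-fold, from 149 ± 3.52 CPM (SD, n = 2) in MDA-MB-231 EV to 6.03 ± 0.082 CPM (SD, n = 2) in BT549 EV. HK2 spanned 6.63-fold and PFKP 3.71-fold. ALDOA, TPI1, ENO1 and PKM stayed within 1.53-fold to 1.88-fold between their highest and lowest group. GAPDH, the common reference gene, spanned 2.34-fold and PGK1 3.44-fold. When the groups of each gene were ordered by mean CPM, the libraries of neighbouring groups overlapped in 4 of 50 pairs. These were BT549 OE with SUM159 KD and SUM159 KD with SUM159 EV for ALDOA, SUM159 KD with BT549 EV for GAPDH, and MDA-MB-231 KD with MDA-MB-231 EV for ENO1.

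Among the EV libraries, the lines differed most in SLC2A1. The test called 75.7% of all genes between SUM159 and MDA-MB-231, 79.5% between BT549 and MDA-MB-231 and 78.4% between BT549 and SUM159, so most genes differ between these lines. SUM159 against MDA-MB-231 gave 5 genes higher and 5 lower (39.2% and 36.4% of all genes were), with SLC2A1 at -1.15, HK2 at -0.58 and PFKP at -0.52 on the log2 scale, and ALDOA at 0.57 and LDHA at 0.37. For BT549 against MDA-MB-231 there were 4 higher and 6 lower (39.1% and 40.4% of all genes were), with SLC2A1 at -4.63 (SE 0.074), PFKP at -1.70, PGK1 at -1.07 and LDHA at -0.78, and HK2 at 0.76. For BT549 against SUM159 there were 1 higher and 7 lower (37.7% and 40.7% of all genes were), with HK2 the gene that was higher, at 1.34 (SE 0.054, adjusted p = 1.22e-16). Scaling by library size alone moved the median gene by -0.31 and -0.21 in these comparisons with BT549, and turned ALDOA and ENO1 against MDA-MB-231 from higher to lower (0.09 to -0.23 and 0.24 to -0.07), so the small differences between lines depend on the scaling. The call for ALDOA was also lost without BT549 EV replicate 1 (log2 fold change 0.06, adjusted p = 0.134).

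PKM encodes pyruvate kinase M1 and M2, which differ by 1 of a pair of mutually exclusive exons, and M2 is the form known from tumors and proliferating cells. The exons, each of 167 bases on the minus strand of chromosome 15 in GRCh38, are shown because the counts of the forms rest on them. M1 is at chr15:72203022-72203188 and M2 at chr15:72202454-72202620, both coding exons of PKM. They share 105 of 167 bases position by position (62.9%), and capitals mark the bases that differ.
M1 exon: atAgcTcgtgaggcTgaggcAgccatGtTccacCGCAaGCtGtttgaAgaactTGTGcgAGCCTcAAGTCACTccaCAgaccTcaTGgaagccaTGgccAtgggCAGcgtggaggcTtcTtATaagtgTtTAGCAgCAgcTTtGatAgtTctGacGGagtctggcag
M2 exon: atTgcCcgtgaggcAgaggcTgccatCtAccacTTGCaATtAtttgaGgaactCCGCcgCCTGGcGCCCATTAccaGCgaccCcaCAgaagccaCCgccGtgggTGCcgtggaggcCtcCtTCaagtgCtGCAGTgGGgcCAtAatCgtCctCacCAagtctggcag

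Of the counts on PKM transcripts that hold 1 of these exons, M1 transcripts took a small part in every library. The part was 2.78% and 2.81% in MDA-MB-231 EV and 1.75% and 2.21% in KD. It was highest in SUM159, at 5.90% and 6.23% with EV against 7.83% and 7.38% with KD. BT549 gave 4.19% and 4.33% with EV against 3.78% and 3.53% with OE. The KD libraries of MDA-MB-231 were thus below their EV libraries, those of SUM159 above, and the BT549 OE libraries below, without overlap. M2 transcripts carried the rest. From SUM159 EV to KD, M2 transcripts went from 29325 and 30518 to 15977 and 17847 expected counts. M1 transcripts also went down, from 1837 and 2026 to 1358 and 1422 expected counts. These counts are not scaled for library size. How a read is divided between transcripts was the authors' step, and the shares were not tested.

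The division between transcripts also bears on SLC2A1, LDHA and PGK1. Over the 12 libraries together, the transcript with the most counts held 90.8% to 97.1% of the counts of PFKP, ALDOA, TPI1, GAPDH, ENO1, PKM and HK2. In single groups this share went down to 85.2% (ALDOA in MDA-MB-231 EV). For SLC2A1, whose counts fell on 13 transcripts, the transcript with the most counts held 39.5% over all libraries. In SUM159 EV it moved from 55.0% in replicate 1 to 38.1% in replicate 2. A SLC2A1 transcript annotated for nonsense-mediated decay took up to 46.9% of its counts (BT549 OE replicate 2). Protein-coding transcripts held 56.2% of the SLC2A1 counts over all libraries, against 76.9% for LDHA. With protein-coding transcripts only, SLC2A1 stood at 1.85 TPM in BT549 EV and 2.18 TPM in OE, beside 4.05 and 6.43 TPM with all transcripts. For LDHA the transcript with the most counts held 59.5%, and a transcript annotated for nonsense-mediated decay took 19.3% to 27.1%. For PGK1 the transcript with the most counts held 66.9%. The CPM values and the tests on sums per gene do not rest on this division, whereas the TPM levels and shares, the M1 and M2 shares and the tests of single transcripts do. With the main transcript's length for all counts, PGK1 in MDA-MB-231 EV was 431 TPM in place of 333 TPM. Annotated pseudogenes that share the members' names held at most 0.366% of a member's counts in any library (LDHA).

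The length of the main transcript was 1285 bases for GAPDH, 1351 for TPI1, 1486 for ALDOA, 1781 for ENO1, 2241 for LDHA, 2305 for PKM, 2405 for PGK1, 2626 for PFKP, 3384 for SLC2A1 and 5626 for HK2. In MDA-MB-231 KD the shorter mRNAs were those with the higher log2 fold changes, with a Spearman correlation of -0.81 across the 10 genes, beside 0.05 across all 16538 genes. In SUM159 KD it was -0.58 across the 10 genes and -0.10 across all genes. For BT549 OE the values were -0.03 and -0.12. These correlations are across genes, which are not independent replicates, and describe these libraries only. Of all genes with a main transcript under 1500 bases, the median log2 fold change was -0.02 in MDA-MB-231 KD and 0.18 in SUM159 KD, while the 3 members of that length had medians of 0.45 and 0.02.

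**Figure D4:**
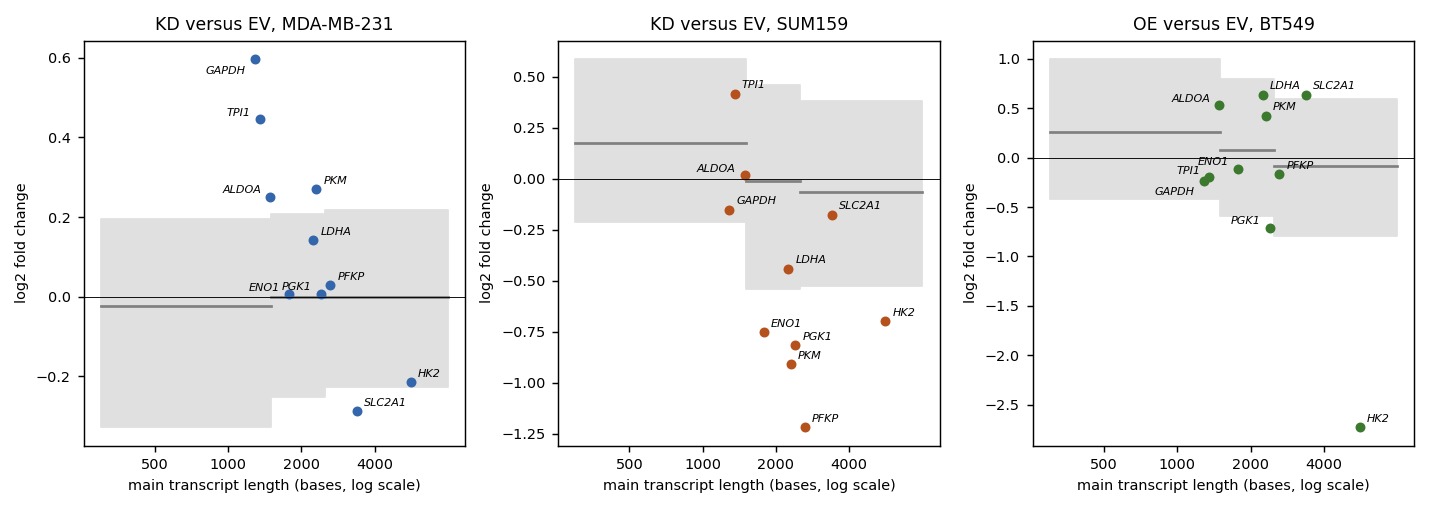
Points give each gene's log2 fold change against the length of its main transcript in bases (log scale), with 1 panel per comparison and its own y range. Gray lines and bands are the median and the interquartile range of all genes under 1500 bases, from 1500 to under 2500 bases and of 2500 bases or more, drawn to the edges of the plot for the shortest and longest genes. In MDA-MB-231 KD, GAPDH, TPI1 and ALDOA lie above the band of short genes, while in SUM159 KD, ENO1, PGK1, PKM, PFKP and HK2 lie below theirs.

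HIF1 binds the core ACGTG or GCGTG, and MYC with MAX binds CACGTG. The 250 bases upstream of 1 listed start site per member were therefore searched for these letters on both strands. Of 35116 promoters in the RefSeq table for GRCh38.p14, 18.5% held ACGTG, 32.2% GCGTG, 43.2% either core and 6.34% CACGTG within 250 bases upstream. Among the 10 genes, HK2, ALDOA, GAPDH, PGK1, ENO1 and LDHA held a core, and SLC2A1, PFKP, TPI1 and PKM held none in this window. CACGTG contains ACGTG on both strands, and was present in LDHA (2 places) and GAPDH (1 place). The GAPDH, PFKP, TPI1, ENO1 and PKM windows lie within the annotated genes. The listed start sites of GAPDH and PFKP are 747 and 422 bases from the start of the transcript that took most counts. The windows of HK2, PGK1, LDHA and ALDOA are shown as examples that hold a core, chosen after their values were seen among the genes that changed by over 0.5 on the log2 scale in BT549 OE. SLC2A1 also changed by that much, and its window, with no core, is not printed. Capitals mark the motifs. The window of HK2 is chr2:74833877-74834126 (plus strand), next to the HK2 start site and in part within an exon of the divergent HK2-DT. That of LDHA is chr11:18394313-18394562 (plus strand). That of ALDOA is chr16:30065510-30065759 (plus strand), within the annotated ALDOA gene. That of PGK1 is chrX:78103998-78104247 (plus strand), which lies within the annotated PGK1 gene, 193509 bases from the start of the transcript that took most counts.
HK2: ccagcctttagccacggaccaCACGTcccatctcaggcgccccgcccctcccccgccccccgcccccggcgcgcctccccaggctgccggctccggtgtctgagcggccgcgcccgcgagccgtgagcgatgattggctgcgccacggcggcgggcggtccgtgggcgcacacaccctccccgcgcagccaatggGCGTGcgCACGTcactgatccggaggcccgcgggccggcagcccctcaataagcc
LDHA: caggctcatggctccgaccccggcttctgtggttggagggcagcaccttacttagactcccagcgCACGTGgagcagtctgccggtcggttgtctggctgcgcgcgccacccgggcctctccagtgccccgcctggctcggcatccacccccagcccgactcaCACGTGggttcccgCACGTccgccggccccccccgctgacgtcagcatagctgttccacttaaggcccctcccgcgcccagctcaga
PGK1: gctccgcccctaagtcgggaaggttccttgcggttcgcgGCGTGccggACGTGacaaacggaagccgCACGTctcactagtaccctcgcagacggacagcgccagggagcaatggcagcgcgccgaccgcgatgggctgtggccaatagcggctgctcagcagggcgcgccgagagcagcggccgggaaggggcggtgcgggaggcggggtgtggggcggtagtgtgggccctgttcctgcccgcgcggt
ALDOA: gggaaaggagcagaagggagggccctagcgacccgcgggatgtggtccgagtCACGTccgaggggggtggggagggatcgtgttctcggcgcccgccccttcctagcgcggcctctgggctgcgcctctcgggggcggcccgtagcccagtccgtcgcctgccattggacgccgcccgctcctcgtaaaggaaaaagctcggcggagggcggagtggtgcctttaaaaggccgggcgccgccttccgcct

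In MDA-MB-231 KD and in BT549 OE, genes with a core and genes without were called in each direction. In SUM159 KD the only gene called higher, TPI1, had no core. Whether a core bears on these changes was not tested. In SUM159 KD, LDHA with 5 matches to ACGTG and PKM with none both fell, and TPI1 with none rose. The LDHA matches are not all separate places, since its 2 CACGTG places are each counted on both strands. In BT549 OE, HK2 and PGK1, with 2 matches to ACGTG and 1 to GCGTG each, fell while LDHA rose. A match is a description of letters in this window and not a binding site.

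Over all genes, 31.4% were called lower and 28.6% higher in SUM159 KD, 16.5% and 21.2% in MDA-MB-231 KD, and 35% and 35.6% in BT549 OE, and the counts of the gene lists that follow are to be read against these shares. Of 14 regulators of glycolytic genes tested, 9 were called lower and 2 higher in SUM159 KD, with 7 lower against 6 higher for MDA-MB-231 KD and 4 against 3 for BT549 OE. MYC fell in SUM159 KD from 821 ± 1.78 to 350 ± 2.89 CPM (SD, n = 2), a log2 fold change of -1.23 (adjusted p = 2.93e-20). It was also called lower in MDA-MB-231 KD (log2 fold change -0.36, adjusted p = 2.54e-09). HIF1A was called lower in both, at -0.28 in MDA-MB-231 KD and -0.63 in SUM159 KD. In BT549 OE neither MYC (-0.03) nor HIF1A (-0.09) was called. HIF1A and these further MYC values were added after they were seen. The part of these regulators in the changes of the glycolysis genes was not tested. TXNIP, a glucose-induced protein that restrains glucose uptake, fell from 752 ± 0.052 to 76.9 ± 5.81 CPM (SD, n = 2) in SUM159 KD (log2 fold change -3.29) and from 639 ± 20.6 to 345 ± 2.94 CPM (SD, n = 2) in MDA-MB-231 KD (log2 fold change -0.89). Its relative ARRDC4 fell in both as well, by 1.99 and 1.46 on the log2 scale. In BT549 OE, MLX, a partner in glucose-responsive transcription, and EPAS1 fell, with log2 fold changes of -0.89 and -0.49.

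The other isoenzymes and transporters of glycolysis, 28 of them tested, gave 10 lower and 7 higher in SUM159 KD, 9 higher and 3 lower in MDA-MB-231 KD, and 13 lower and 8 higher in BT549 OE. The SUM159 counts are near the shares of all genes (31.4% lower, 28.6% higher). In SUM159 KD, the phosphofructokinase subunits PFKM and PFKL fell along with PFKP, from 151 ± 0.99 to 51.5 ± 0.024 CPM (SD, n = 2) and from 238 ± 0.45 to 103 ± 7.81 CPM (SD, n = 2), log2 fold changes of -1.56 and -1.22. LDHB, the other main lactate dehydrogenase subunit, fell from 736 ± 0.90 to 312 ± 7.41 CPM (SD, n = 2), a log2 fold change of -1.24 (adjusted p = 7.83e-21). In MDA-MB-231 KD, phosphoglycerate mutase PGAM1 and ENO2 rose by 0.29 and 0.54, and PFKM fell by 0.48 on the log2 scale. In BT549 OE, ENO2 fell by 3.02 and PFKFB3, which makes the activator of phosphofructokinase, fell by 0.91, while glucose-6-phosphate isomerase GPI rose by 0.72. HK1, the other widely expressed hexokinase, and PGAM1 in SUM159 KD were singled out after their values were seen. HK1 had log2 fold changes of -0.13, -0.84 and 0.14 in MDA-MB-231 KD, SUM159 KD and BT549 OE, beside -0.21, -0.70 and -2.73 for HK2. In BT549, HK1 stood at 89.7 ± 0.55 CPM (SD, n = 2) in EV and 98.6 ± 0.69 CPM (SD, n = 2) in OE. PGAM1 had 0.44 in SUM159 KD, the direction of TPI1.

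Downstream of pyruvate, 8 of 17 genes were called lower (31.4% of all genes were) and 6 higher (28.6% of all genes were) in SUM159 KD, the lower ones including the pyruvate dehydrogenase subunits PDHA1 (log2 fold change -0.86) and DLD (-0.96) and the lactate transporter SLC16A1 (-0.73). In MDA-MB-231 KD, 6 were higher (21.2% of all genes) and 2 lower (16.5% of all genes). SLC16A3, the lactate exporter of glycolytic cells, rose from 427 ± 27.03 to 588 ± 10.9 CPM (SD, n = 2), a log2 fold change of 0.46, its chaperone BSG fell by 0.39, and the mitochondrial pyruvate carrier subunit MPC2 fell by 0.27 on the log2 scale. In BT549 OE, 12 were higher (35.6% of all genes) and 4 lower (35% of all genes), with MPC2 rising from 65.4 ± 1.69 to 232 ± 5.18 CPM (SD, n = 2), a log2 fold change of 1.83, EMB at 2.02 and SLC16A1 at -1.63.

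Of the pentose phosphate and gluconeogenic genes, 13 tested, 8 were lower and 4 higher in SUM159 KD, 5 higher and 3 lower in MDA-MB-231 KD, and 6 higher and 5 lower in BT549 OE. The shares of all genes called lower and higher were 31.4% and 28.6%, 16.5% and 21.2%, and 35% and 35.6% in these comparisons, so that the higher count in SUM159 KD and the lower count in BT549 OE are near them. TKT fell by 0.70 in SUM159 KD and by 0.53 in BT549 OE on the log2 scale. The gluconeogenic enzyme PCK2 fell in both, with log2 fold changes of -2.20 and -2.55. In MDA-MB-231 KD, TALDO1 and PC rose by 0.32 and 0.56.

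Genes known to respond to hypoxia that have no part in glycolysis, 26 in number, gave 15 higher (28.6% of all genes) and 7 lower (31.4% of all genes) in SUM159 KD, with CITED2 at 1.53 and BNIP3 at 1.30, and DDIT4 at -2.07, on the log2 scale. In MDA-MB-231 KD, 9 were higher (21.2% of all genes) and 8 lower (16.5% of all genes), with CITED2 at 0.61, ADM at 0.58 and the carbonic anhydrase CA9 at -3.09, from 5.10 ± 0.13 to 0.595 ± 0.10 CPM (SD, n = 2). In BT549 OE, 16 were higher (35.6% of all genes) and 8 lower (35% of all genes). NDRG1 rose from 3.06 ± 0.073 to 353 ± 14.5 CPM (SD, n = 2) there, a log2 fold change of 6.85, CA12 rose by 2.68, and DDIT4 fell by 1.74.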

How the data were processed

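Polysome-associated RNA was compared between 6 groups of 2 libraries, assigned from the sample labels. According to the methods, the authors used Trimmomatic for trimming, HISAT2 for alignment to GRCh38 and SAMtools to take out duplicates. For the library kit, the methods give rRNA depletion with a stranded kit, and the labels poly(A) enrichment. The counting tool and its strand setting are not given in the sources used here. The values in the deposited table are expected counts by Ensembl transcript, which the authors did not normalize. In the 8 MDA-MB-231 and SUM159 columns 5.08% of cells hold a missing mark, taken as 0, for which their unit was recorded as other. The table has no transcript at 0 in all 4 BT549 libraries.

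Transcripts were matched to GENCODE 44 (79.6%, holding at least 99.2% of counts), summed per symbol and rounded. The main test was edgeR 4.0.16 (quasi-likelihood, TMM, filterByExpr) in R 4.3.3, with 1 model of the 6 group means and 6 residual degrees of freedom, tested on simulated data. Tables and figures used Python 3.11.15, pandas 2.3.3, numpy 2.4.6, scipy 1.17.1 and matplotlib 3.10.9. Named genes were the 10 members, TRMT112, the 5 genes most like the members, and, per other list and comparison, the 3 members with the smallest p among those with a mean of at least 50 counts. A few genes that meet it are not reported here. The members and lists were chosen with earlier results of these data known. Replicate numbers did not pair the samples. Alternatives were other size factors, DESeq2 1.42.0, other filters, a replicate block, each line alone, the main transcript singly, the marked transcripts left out, other transcript lengths and leaving out each library. Standard errors, like the p-values, cover only the spread between these libraries.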

Additional observations from a re-analysis of the deposited data

Results flagged for a closer look

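The KD effect differed between MDA-MB-231 and SUM159, by edgeR's quasi-likelihood test of the difference itself, for 8 of the 10 glycolysis genes. On the log2 scale the effect in MDA-MB-231 minus that in SUM159 was 1.25 for PFKP, 1.18 for PKM, 0.82 for PGK1, 0.76 for ENO1, 0.75 for GAPDH, 0.58 for LDHA, 0.49 for HK2 and 0.23 for ALDOA. In the same model 50.9% of all genes passed this test in either direction. Groups of 2 libraries are too small for a check of single outlying libraries.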

How the results depend on the processing

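Of the 590 member results under the alternatives that keep all libraries, 556 kept their direction and side of the threshold, and so did 832 of 840 with 1 library left out. The replicate block changed no call (correlations of same-numbered libraries 0.02, -0.02 and 0.00, so numbers do not pair them). With RLE size factors and with DESeq2, members called higher were 2 in SUM159 KD (ALDOA added) and 3 for BT549 against SUM159 EV (ENO1 and TPI1 added). Scaled by library size only, 4 members were lower in MDA-MB-231 KD, 1 was higher for BT549 against MDA-MB-231 EV, and 1 (SLC2A1) was negative in the difference of the KD effects. The log2 fold changes that turned sign with it were ENO1 (-0.083), PGK1 (-0.083) and PFKP (-0.061) in MDA-MB-231 KD, ALDOA in SUM159 KD (-0.020), ALDOA (-0.23) and ENO1 (-0.075) for BT549 against MDA-MB-231 EV, and ENO1 (-0.19) and TPI1 (-0.17) for BT549 against SUM159 EV. Tested by the main transcript singly, 0 members were lower in MDA-MB-231 KD by edgeR's quasi-likelihood test (1, HK2, at an unadjusted p under 0.05), and SLC2A1 turned to -0.23 in BT549 OE and to 0.086 in the difference of the KD effects.

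Values close to 0 also turned sign. ENO1 and PGK1 in MDA-MB-231 KD gave -0.0077 and -0.0070 with a mean of at least 50 counts and -0.0055 and -0.0047 with each cell line fitted alone. The TPI1 difference of the KD effects gave -0.0061 with RLE size factors, -0.026 by library size, -0.0061 in DESeq2 and -0.013 with a mean of at least 50 counts. With 1 library left out, ENO1 in MDA-MB-231 KD ranged from -0.00044 to 0.018 and the TPI1 difference from -0.010 to 0.062. Members called lower in MDA-MB-231 KD then ranged from 1 to 2, and members called higher for BT549 against SUM159 EV from 1 to 2. Where 1 library is left out, the other library of that group is assumed to vary like the other groups. TPM levels moved by more than the spread of replicates in 119 of 120 comparisons with other transcript lengths, and M1 shares of PKM in none of 6. The cause was not tested where a result changed. Depth limits SLC2A1 in BT549, at 5.97 to 10.5 CPM.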

Other observations

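Over the 12 libraries, the genes whose log2 CPM was most like the mean profile of the 10 glycolysis genes were FYN (Pearson r = 0.998), PIEZO1 (0.995), PGM2 (0.993), TMEM154 (0.991) and AARSD1 (0.989), out of 12580 genes whose mean reached 50 counts. The 12 libraries come from 3 cell lines, and these values take in differences between lines as well as between conditions. An r over 0.9 was reached by 531 genes. The mean profile was not scaled by each gene's range, so genes that vary widely, above all SLC2A1 (24.7-fold), weigh most in it. The 10 genes did not share 1 profile, since r between pairs of them ranged from -0.84 (HK2 with ALDOA) to 0.94 (PFKP with PGK1).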
